A study of Mus musculus with 8 samples.

Results

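The 9 genes described here are Adh1 and 8 other genes of retinoid metabolism and signalling: Rdh10, Dhrs3, Aldh1a1, Aldh1a2, Aldh1a3, Crabp1, Crabp2 and Rarb. They are 9 of the 18193 genes measured, and 12 of the 45037 probe sets of the array were annotated to 1 of them and to no other gene. Adh1 was chosen by its measured value, a higher level in Stat5a/b-null than in control cells, so its genotype differences are given as a description, with no test. The other members were chosen for their place in the pathway, with results of these data known.

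The cells were mouse embryonic fibroblasts (MEFs), a culture grown from mouse embryos, of the C57BL/6 strain at passage 13. Control cells and cells null for the transcription factor genes Stat5a and Stat5b were starved for 5 h and then given growth hormone (GH) at 1 ug/ml, or none, for 2 h. The 4 groups (control without GH, control with GH, null without GH and null with GH) had 2 Affymetrix whole-genome arrays each. Replicates are called biological in the labels, which name no embryo or culture of origin, so p-values measure only the spread between these arrays and that spread may be technical. The labels state neither how the null cells were made nor where the GH came from. The series asks how STAT5A and STAT5B restrain proliferation through Cdkn2b and Cdkn1a.

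Retinol, or vitamin A, is first oxidised to retinal, a reversible step run by alcohol dehydrogenases such as ADH1 and by retinol dehydrogenases such as RDH10, while DHRS3 reduces retinal back to retinol. The retinaldehyde dehydrogenases ALDH1A1, ALDH1A2 and ALDH1A3 then convert retinal irreversibly to retinoic acid. Retinoic acid is carried in the cell by CRABP1 and CRABP2 and binds nuclear receptors such as RARB, whose gene is itself a well known target of retinoic acid, as are Dhrs3 and Crabp2.

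The promoters of Adh1, the gene for which the set is named, and of Rarb, a receptor gene whose promoter carries a classic retinoic acid response element, are shown because they stand at the ends of this pathway and went in opposite directions in null cells. They are the 250 bases before the annotated start, read 5′ to 3′ on the gene's strand, from RefSeq on GRCm38.p6. Adh1 lies at chr3:138277335-138277584 on the + strand and Rarb at chr14:16575477-16575726 on the - strand. Capitals mark a direct repeat of 2 short receptor sites with 5 bases between them (DR5).
Adh1: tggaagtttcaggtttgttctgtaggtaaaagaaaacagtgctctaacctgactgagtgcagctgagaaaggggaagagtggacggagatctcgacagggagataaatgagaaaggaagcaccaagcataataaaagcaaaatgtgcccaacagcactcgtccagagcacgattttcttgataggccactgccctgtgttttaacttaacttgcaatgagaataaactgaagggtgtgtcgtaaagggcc
Rarb: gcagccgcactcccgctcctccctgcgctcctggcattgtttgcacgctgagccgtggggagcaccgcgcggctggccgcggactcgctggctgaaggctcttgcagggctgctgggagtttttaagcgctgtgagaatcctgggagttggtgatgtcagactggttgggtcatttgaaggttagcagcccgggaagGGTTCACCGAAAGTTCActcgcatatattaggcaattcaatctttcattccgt

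Each window was searched on both strands from 250 bases before to 50 bases after the start. The patterns were direct repeats of AGTTCA or AGGTCA or GGTTCA, alike or mixed, with 5, 2 or 1 bases between them (DR5, DR2 and DR1), which retinoid receptors bind, and the STAT pattern TTCNNNGAA. Of the 9 members, 6 had an entry in the promoter table, with 9 windows, and Aldh1a3, Crabp2 and Rdh10 had none. Only the Rarb window held a match. Its DR5, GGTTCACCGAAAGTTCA, spans positions -53 to -37 from the start, and a TTCNNNGAA match (TTCACCGAA, -51 to -43) overlaps it. DR5 was found in 20 of 32851 windows (0.0609%), DR2 in 69 (0.21%), DR1 in 33 (0.1%) and TTCNNNGAA in 2726 (8.3%). The letters are a description of these windows and not evidence of binding.

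Values are deposited log2 levels, and array medians lay between 6.89 and 6.96. A group mean under 6.097, the lowest quartile boundary over all gene values, is called dim: it was not set apart from background, and no fold is given against it. As a check of the labels, Stat5a stood at 7.49 and 7.62 in control cells without and with GH and was dim in null cells. Stat5b was lower in null cells but not dim, at 8.01 and 7.93 in control and 7.32 and 6.99 in null cells without and with GH. It was 1.62-fold lower without GH (-0.69 ± 0.09, limma adjusted p = 3.33e-05) and 1.91-fold lower with GH (-0.93 ± 0.09, limma adjusted p = 2.71e-06), and whether its probes lie in the altered part of the gene is not known here. Fibroblast markers were bright in every group, with summed linear signals of 168970 to 177470 on the control arrays and 188490 to 201190 on the null arrays over 11 measured markers, none of them dim. In both GH states 4 of the 11 were higher and 1 was lower in null cells. Lum was 19.9-fold, Pdgfra 13.9-fold and Dcn 11.9-fold higher without GH, while Fn1 was 1.96-fold lower. The control cells also carried macrophage and leukocyte transcripts. All 14 measured markers of these cells were lower in null cells with and without GH, at summed linear signals of 34264 to 39094 on the control arrays and 2298.5 to 2774.2 on the null arrays. Ptprc, Itgam, C1qb, C1qc, Aif1 and Mrc1 were dim in null cells without GH, and with GH so were Adgre1, Tyrobp and C1qa. Of the other cell types' markers, Msln of mesothelium went from dim in control cells to 9.54 and 9.39 in null cells without and with GH, with 1 of 6 mesothelial markers higher and 2 lower in both GH states. Without GH, 1 of 8 epithelial markers was higher and 1 lower (Krt19, 5.13-fold), 0 of 8 endothelial markers were higher and 3 lower (among them Emcn, dim in null cells), 2 of 5 adipocyte markers were higher and 1 lower, and 0 of 5 liver markers passed. Of all genes, 47.5% passed between genotypes without GH and 45.3% with GH. All of the macrophage and leukocyte markers, and some of each other type except liver, were among them. The part of these markers in the results was not tested. In such bulk RNA, a change in the number of cells of a type and a change in RNA per cell cannot be told apart.

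Adh1, the class I alcohol dehydrogenase, which oxidises ethanol and retinol, was far higher in null cells. Its log2 levels were 8.62 and 8.67 in control cells without GH and 8.83 and 8.65 with GH. In null cells they were 13.81 and 13.91 without GH and 13.80 and 13.83 with GH. All 4 null arrays lay above all 4 control arrays, with a gap of 4.97 between the nearest arrays. The difference was 5.21 ± 0.09 (SE, n = 2 per group; 37.1-fold) without GH and 5.07 ± 0.09 (33.7-fold) with GH, the values for which the gene was picked.

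**Figure D1:**
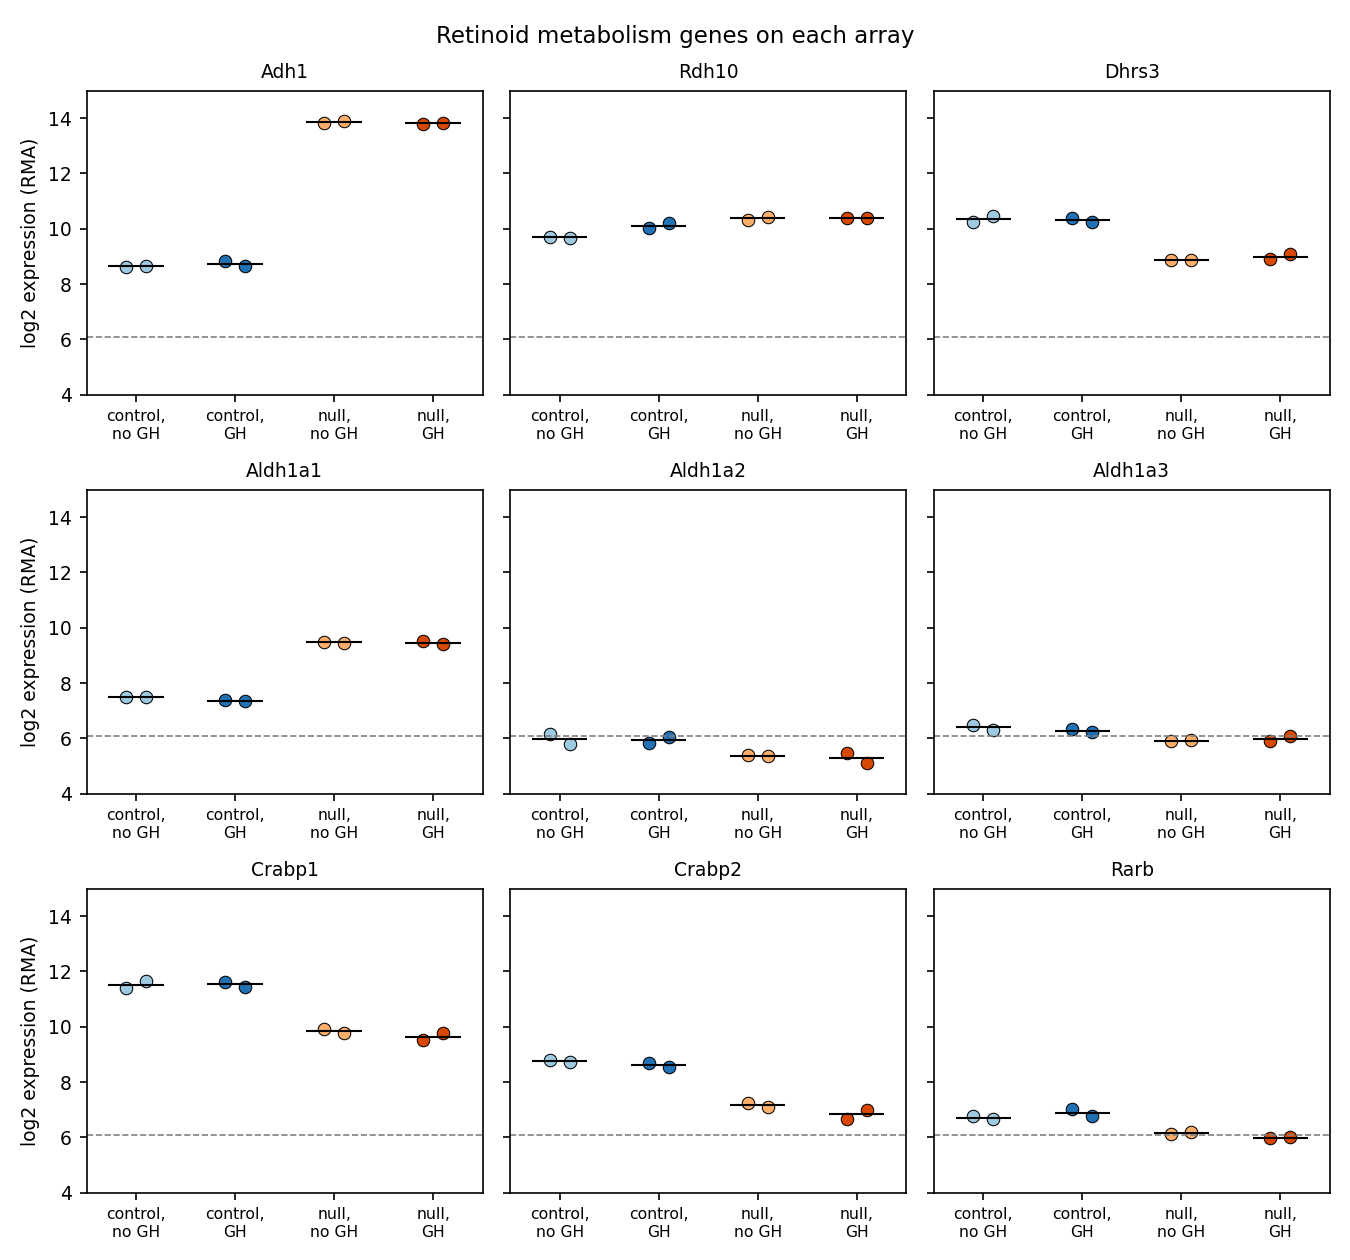
Deposited log2 level (vertical axis) of the 9 genes on each array, by group. Points are arrays, bars are group means of 2 arrays and the dashed line is the first quartile of all gene values (6.097). Null arrays lie above control arrays for Adh1, Rdh10 and Aldh1a1 and below them for the other 6 genes, with Aldh1a2, Aldh1a3 and Rarb near the dashed line.

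Rdh10, the membrane enzyme that supplies most retinal in the embryo, was also higher in null cells, by a smaller amount. The probe set that stood for the gene read 9.70 and 9.68 in control cells without GH, 10.03 and 10.21 in control cells with GH, 10.34 and 10.44 in null cells without GH and 10.38 and 10.39 in null cells with GH. The null arrays lay together above the control arrays, and the control arrays with GH lay between. Without GH the genotype difference was 0.70 ± 0.09 (1.62-fold, limma adjusted p = 4.49e-05). With GH it was 0.27 ± 0.09 (1.21-fold, limma adjusted p = 0.0315). The second call was lost without control-with-GH replicate 2 (0.18, limma adjusted p = 0.284), null-with-GH replicate 2 (limma adjusted p = 0.0974) or null-with-GH replicate 3 (limma adjusted p = 0.11). With the mean of both probe sets the difference with GH was 0.56 (limma adjusted p = 0.000227).

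The other Rdh10 probe set went the same way with larger differences. It read 7.29 and 7.63, 7.79 and 7.70, 8.47 and 8.65, and 8.60 and 8.57 in the same order of groups. Tested among all probe sets, it differed by 1.10 ± 0.12 without GH (limma adjusted p = 1.48e-05) and 0.84 ± 0.12 with GH (limma adjusted p = 0.000134), comparisons that called 38.6% and 37.3% of all probe sets.

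Dhrs3, the reductase that turns retinal back into retinol, moved opposite to Adh1 and Rdh10. It read 10.25 and 10.45 in control cells without GH and 10.38 and 10.24 with GH, against 8.89 and 8.88 in null cells without GH and 8.90 and 9.08 with GH. The genotypes did not overlap. Dhrs3 was 2.76-fold lower in null cells without GH (-1.46 ± 0.10, limma adjusted p = 1.57e-07) and 2.50-fold lower with GH (-1.32 ± 0.10, limma adjusted p = 4.08e-07).

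Aldh1a1, the first of the enzymes that make retinoic acid, was higher in null cells, unlike the next 2 of its family. It read 7.51 and 7.49 in control cells without GH and 7.39 and 7.34 with GH. Null cells read 9.49 and 9.46 without GH and 9.52 and 9.41 with GH, well clear of the control arrays. Aldh1a1 was 3.92-fold higher without GH (1.97 ± 0.09, limma adjusted p = 2.51e-09) and 4.28-fold higher with GH (2.10 ± 0.09, limma adjusted p = 1.45e-09). Aldh1a7, a close paralog chosen for comparison after the data were seen, was lower in null cells without GH (-0.28 ± 0.11, limma adjusted p = 0.0488) and at -0.13 ± 0.11 with GH (limma adjusted p = 0.381).

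Aldh1a2, the main retinoic acid-forming enzyme of the early embryo, was dim in all 4 groups. Its arrays read 6.18 and 5.82 in control cells without GH, 5.82 and 6.06 with GH, 5.40 and 5.35 in null cells without GH and 5.49 and 5.13 with GH. Null arrays were lower (limma adjusted p = 0.00298 without GH and 0.00269 with GH), but the level was not set apart from background, so no size is given. Without null-with-GH replicate 3 the second call was lost (limma adjusted p = 0.0521).

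Aldh1a3, the third enzyme of the family, had 3 probe sets, all low. The one that stood for the gene read 6.50 and 6.32 in control cells without GH, 6.33 and 6.23 with GH, 5.91 and 5.93 in null cells without GH and 5.90 and 6.08 with GH. It was lower in null cells, where it was dim (limma adjusted p = 0.00124 without GH and 0.0319 with GH). The call with GH was lost without control-with-GH replicate 2 (limma adjusted p = 0.184), control-with-GH replicate 3 (limma adjusted p = 0.057) or null-with-GH replicate 2 (limma adjusted p = 0.226). It was also lost under a trended and robust variance prior (limma adjusted p = 0.0533).

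The other Aldh1a3 probe sets were also lower in null cells on every array. The first read 5.92 and 6.03, 6.15 and 6.19, 5.85 and 5.77, and 5.69 and 5.85 in the same order of groups, and missed the threshold without GH (limma adjusted p = 0.215) but passed it with GH (limma adjusted p = 0.0059). The second read 5.79 and 5.85, 5.91 and 5.91, 4.59 and 4.86, and 4.83 and 4.66, dim in every group, and passed it in both GH states (limma adjusted p = 7.73e-06 without GH and 4.81e-06 with GH). The 3 probe sets thus agreed in direction and differed in their calls without GH. With the mean of the 3, the difference with GH passed as well (limma adjusted p = 3.11e-05).

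**Figure D2:**
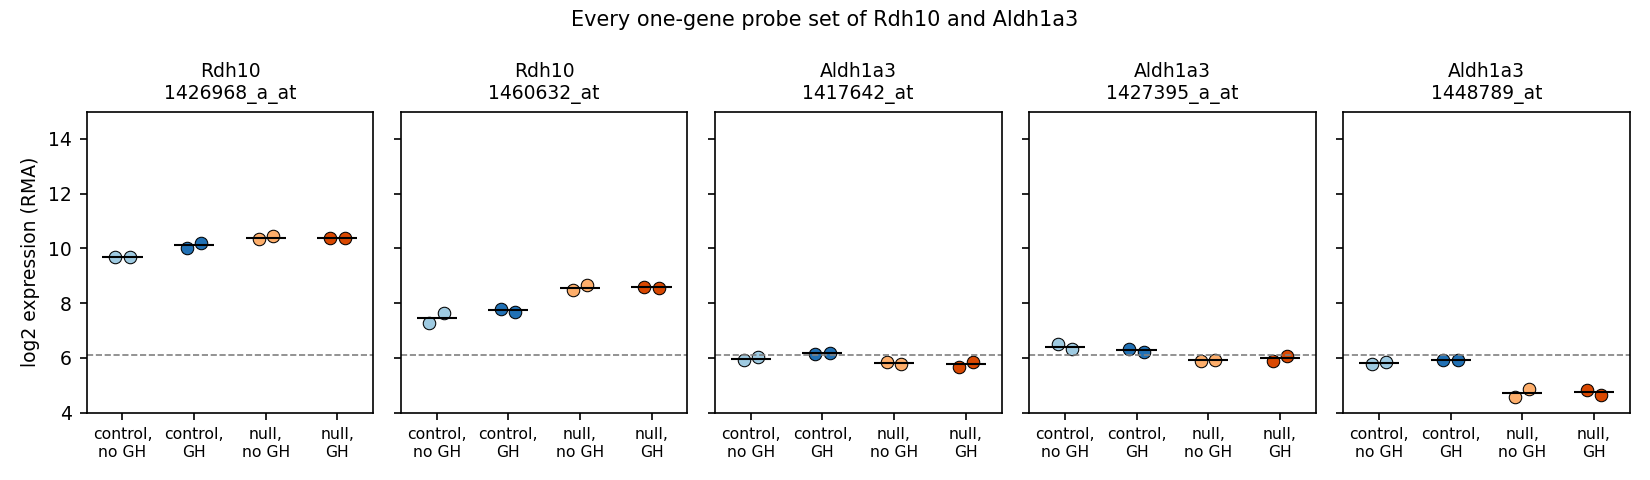
Deposited log2 level (vertical axis) of the 2 Rdh10 and 3 Aldh1a3 probe sets on each array, by group. Points are arrays, bars are means of 2 arrays and the dashed line is the first quartile (6.097). Null arrays lie above control arrays in both Rdh10 panels and below them in all 3 Aldh1a3 panels, where most points are near or under the line.

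The retinoic acid carriers fell together. Crabp1, which holds retinoic acid in the cytoplasm, read 11.40 and 11.66 in control cells without GH, 11.63 and 11.44 with GH, 9.91 and 9.78 in null cells without GH and 9.52 and 9.78 with GH. It was 3.22-fold lower in null cells without GH (-1.69 ± 0.12, limma adjusted p = 2.15e-07) and 3.70-fold lower with GH (-1.89 ± 0.12, limma adjusted p = 7.95e-08). Crabp2, which delivers retinoic acid to its nuclear receptors, read 8.80 and 8.74 in control cells without GH, 8.70 and 8.55 with GH, 7.23 and 7.11 in null cells without GH and 6.66 and 7.00 with GH. It was 3.03-fold lower without GH (-1.60 ± 0.12, limma adjusted p = 2.14e-07) and 3.46-fold lower with GH (-1.79 ± 0.12, limma adjusted p = 7.92e-08). For both genes the control and null arrays were far apart relative to the spread within a group.

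Rarb, the receptor gene with the DR5 shown above, was expressed at a low level. It read 6.77 and 6.66 in control cells without GH, 7.03 and 6.77 with GH, 6.11 and 6.20 in null cells without GH and 5.97 and 6.00 with GH. The lowest control array stood above the highest null array. Without GH Rarb was 1.48-fold lower in null cells (-0.57 ± 0.10, limma adjusted p = 0.000525), with a null mean of 6.15 just above the first quartile. With GH it was lower as well (limma adjusted p = 1.07e-05), and since the null level was dim no size is given.

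Counted together, all 8 members tested passed in null against control cells without GH, 2 higher (Aldh1a1 and Rdh10) and 6 lower. Of all genes, 47.5% passed that comparison (24.8% higher and 22.7% lower), so a call by itself was common. With GH the same 8 passed, 2 higher and 6 lower, against 45.3% of all genes (22.2% higher and 23.1% lower). The median absolute log2 difference of the 8 was 1.08 without GH and 1.12 with GH, against 0.243 and 0.227 over all genes. It takes in Aldh1a2, Aldh1a3 and, with GH, Rarb, which had a dim group. Since the members were chosen with results of these data known, setting them against all genes is a description. Tested against a difference of 1.5-fold, 4 of 8 passed without GH (Aldh1a1, Crabp1, Crabp2 and Dhrs3), where 14.3% of genes did, and 5 of 8 with GH (these and Rarb), where 13.3% did. For each of the 8 genes the 4 null arrays and the 4 control arrays did not overlap, with 2 higher and 6 lower, a separation shown by 47.0% of all genes (23.4% higher and 23.6% lower).

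**Figure D3:**
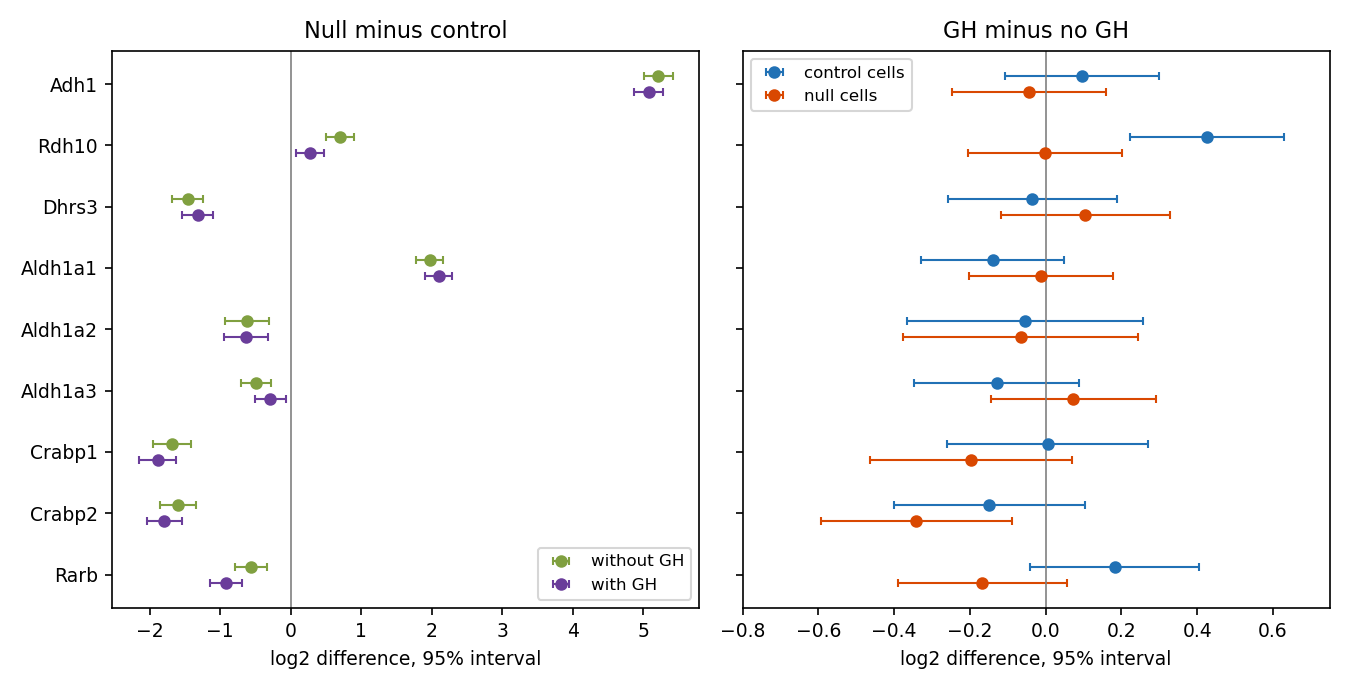
Log2 differences (horizontal axis) of the 9 genes with 95% intervals from the fit to all 8 arrays. The left panel shows null minus control cells without and with GH, with Adh1 at 5.21 and 5.07, and the right panel GH minus no GH, where the Rdh10 interval in control cells runs from 0.22 to 0.63. Intervals of Aldh1a2, Aldh1a3 and Rarb include levels not set apart from background.

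After 2 h of GH, Rdh10 in control cells was the only member to pass the test. It rose 1.34-fold there (0.43 ± 0.09, limma adjusted p = 0.0288), and both arrays with GH lay above both without. That was 1 of 9 members higher, against 2.62% of all genes called (1.72% higher and 0.896% lower). The call was lost without control-without-GH replicate 2 (limma adjusted p = 0.0924) or 3 (limma adjusted p = 0.107), control-with-GH replicate 3 (0.34, limma adjusted p = 0.344) or either null-with-GH array (limma adjusted p = 0.0648 each). It was also lost with probe sets tested alone (limma adjusted p = 0.0549), with the mean of the gene's probe sets (0.36, limma adjusted p = 0.055) and with only the control arrays fitted (limma adjusted p = 0.109). The second Rdh10 probe set differed by 0.28 ± 0.12 (limma adjusted p = 0.462). These comparisons use the same untreated control arrays as the genotype comparison without GH.

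The other 8 members did not pass in control cells, with limma adjusted p from 0.637 to 0.997. Adh1 differed by 0.10 ± 0.09 (95% interval -0.11 to 0.30). In null cells 0 of 9 members passed (limma adjusted p from 0.0802 to 0.993, 1 with an unadjusted p below 0.05), where 11.7% of genes did (5.36% higher and 6.35% lower). Adh1 differed by -0.04 ± 0.09 there (95% interval -0.25 to 0.16). Crabp2 came closest, at -0.34 ± 0.12 (limma adjusted p = 0.0802). Without null-with-GH replicate 3 it passed (-0.51, limma adjusted p = 0.0376), and without replicate 2 it was at -0.17 (limma adjusted p = 0.484).

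The difference of the GH responses between genotypes was tested as an interaction. No member passed (0 of 9, limma adjusted p from 0.0936 to 0.985, 2 with an unadjusted p below 0.05), against 5.16% of all genes (2.83% higher and 2.33% lower). Rdh10 had -0.43 ± 0.13 (limma adjusted p = 0.0936), which passed under a trended and robust variance prior (limma adjusted p = 0.0462). Rarb had -0.35 ± 0.14 (limma adjusted p = 0.228). Adh1 had -0.14 ± 0.13 (limma adjusted p = 0.668, 95% interval -0.43 to 0.15).

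The genes with the pattern most like that of Adh1 were sought among all genes whose brightest group reached the median, by the root mean square difference of centred log2 values over the 8 arrays. Islr, which encodes a secreted immunoglobulin-domain protein of stromal cells, was nearest (0.152). It read 8.03 to 8.37 on the control arrays and 13.51 to 13.66 on the null arrays. Next were the Wnt modulator gene Sfrp2 (0.159), the oestrogen-responsive gene Greb1 (0.175), the oestrogen receptor gene Esr1 (0.176) and the progesterone receptor gene Pgr (0.192). These 4 were dim in control cells and read 11.08 to 11.27, 10.64 to 10.86, 10.43 to 10.71 and 10.13 to 10.40 on the null arrays. The same 5 were nearest after quantile normalization, and since likeness to Adh1 chose them, their differences are a description.

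The protein-coding genes next to Adh1 in RefSeq order, 6 on each side, were looked at after the data were seen. Adh1 was picked for its gain, so it is no yardstick for them. Between genotypes 47.5% of all genes passed without GH and 45.3% with GH. Of the other alcohol dehydrogenase genes there, Adh7 was lower in null cells (-0.38 ± 0.09 without GH, limma adjusted p = 0.00377; -0.42 ± 0.09 with GH, limma adjusted p = 0.00192). Adh5, the glutathione-dependent formaldehyde dehydrogenase, was 1.28-fold higher without GH (0.35 ± 0.09, limma adjusted p = 0.00567) and at 0.18 ± 0.09 with GH (limma adjusted p = 0.13). Adh6b did not pass (0.27 ± 0.11, limma adjusted p = 0.0729 without GH), and Adh4 and Adh6a were dim in every group. Among the other neighbours, the lipoprotein assembly gene Mttp was 1.99-fold higher without GH (1.00 ± 0.11, limma adjusted p = 1.18e-05). Dapp1 was 2.18-fold higher (1.12 ± 0.09, limma adjusted p = 3.98e-07), and the tRNA methyltransferase gene Trmt10a was 2.57-fold lower (-1.36 ± 0.09, limma adjusted p = 5.74e-08). Eif4e was higher by 0.27 ± 0.08 without GH (limma adjusted p = 0.0173) and 0.45 ± 0.08 with GH (limma adjusted p = 0.000688). Metap1 passed only with GH (0.31 ± 0.09, limma adjusted p = 0.0162). The neighbour 4930579F01Rik was dim in every group, and 1110002E22Rik was not among the measured genes.

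The rest of the pathway was read from 6 lists of 93 genes, 80 of them measured. The lists overlap, so some calls are counted in more than 1 of them. Cyp26a1, Cyp26b1, Stra6, Lrat, Rarg and Nrip1 stand both among the retinoic acid targets and in another list. Without GH 35 of the 80 were higher and 16 lower in null cells, and with GH 23 were higher and 16 lower. Over all genes, 24.8% were higher and 22.7% lower without GH, and 22.2% and 23.1% with GH. The genotype counts of each list below stand against these same shares. The median log2 difference of the 80 was 0.17 without GH and 0.05 with GH, against 0.03 and -0.02 over all genes.

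Among retinoid uptake, storage and carrier genes, 2 of 10 were higher and 1 lower without GH, and 2 were higher and 2 lower with GH. In either GH state 4 of the 10 were dim in both groups compared. They include Cd36, the lower call without GH. Lpl, the lipoprotein lipase that releases retinyl esters from lipoproteins, was 4.80-fold higher without GH (2.26 ± 0.09, limma adjusted p = 7.28e-10). The retinol importer gene Stra6 was higher by 0.33 ± 0.10 (limma adjusted p = 0.016), a call lost without control-without-GH replicate 3 (limma adjusted p = 0.0846) or null-without-GH replicate 3 (limma adjusted p = 0.101). Of the other retinol and retinal enzymes, 9 of 22 were higher and 5 lower without GH, and 2 higher and 5 lower with GH. In either GH state 9 of the 22 were dim in both groups compared. They include Adh4 and Rpe65, which were counted as higher without GH. Dhrs7, a dehydrogenase of the DHRS family, was 2.84-fold higher without GH (1.51 ± 0.09, limma adjusted p = 3.80e-08), but its probe sets were unequal, and with their mean the difference was 0.49 without GH and 0.35 with GH. Rdh13 was 1.88-fold lower (-0.91 ± 0.09) and the retinal reductase gene Dhrs4 1.74-fold lower (-0.80 ± 0.09), both without GH.

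The other aldehyde dehydrogenases act mostly on substrates other than retinal. They also divided, with 7 of 14 higher and 4 lower without GH and 6 and 5 with GH. In either GH state 2 of the 14 were dim in both groups compared, Aldh1b1 among the lower and Aldh3a1 among the higher. Aldh5a1, of GABA breakdown (1.33 ± 0.11), Aldh6a1, of valine breakdown (1.20 ± 0.10), and the mitochondrial acetaldehyde enzyme gene Aldh2 (0.73 ± 0.09) were higher without GH. Aldh4a1, of proline breakdown, was lower (-1.13 ± 0.09). With the mean of its probe sets Aldh2 was at 0.41 without GH, and its call with GH was lost (0.17, limma adjusted p = 0.0739). Of the 3 measured genes of retinoic acid breakdown, Cyp2s1 was higher (0.62 ± 0.12, limma adjusted p = 0.000991) and Cyp26b1 lower (-0.33 ± 0.10, limma adjusted p = 0.0169) without GH. The Cyp26b1 call was lost without control-without-GH replicate 2 (limma adjusted p = 0.121) or null-without-GH replicate 2 (limma adjusted p = 0.149). Cyp26a1 did not pass (0.28 ± 0.13, limma adjusted p = 0.0894), and 0 of the 3 passed with GH.

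Retinoid receptors and cofactors were higher where they passed, 8 of 14 without GH and 6 with GH, and 0 were lower. Of all genes, 47.5% passed without GH (24.8% higher) and 45.3% with GH (22.2% higher). Tested against a 1.5-fold difference, 2 of the 14 passed without GH and 0 with GH, where 14.3% and 13.3% of all genes did. The corepressor complex genes Tbl1xr1 (1.31 ± 0.10) and Hdac3 (0.86 ± 0.09), the receptor-interacting gene Nrip1 (0.61 ± 0.08) and the partner receptor gene Rxrb (0.59 ± 0.09) were among the 8 without GH. With the mean of its probe sets Tbl1xr1 was at 0.78. Rarb, outside that list, was lower.

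Known retinoic acid target genes went both ways, with 11 of 23 higher and 6 lower without GH and 9 and 4 with GH. Over all genes, 24.8% were higher and 22.7% lower without GH, and 22.2% and 23.1% with GH. Rarres1, a retinoic acid-induced gene of skin, was 3.88-fold lower (-1.96 ± 0.09, limma adjusted p = 3.87e-09), the transglutaminase gene Tgm2 3.35-fold lower (-1.75 ± 0.09, limma adjusted p = 8.87e-09) and the phosphatase gene Ptprv 3.34-fold lower (-1.74 ± 0.11, limma adjusted p = 7.32e-08). The homeobox gene Meis2 was 2.91-fold higher (1.54 ± 0.09, limma adjusted p = 5.35e-08). Tgm2 is also abundant in macrophages, whose markers were lower in the same cells as given above. Whether that bears on the Tgm2 difference was not tested.

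**Figure D4:**
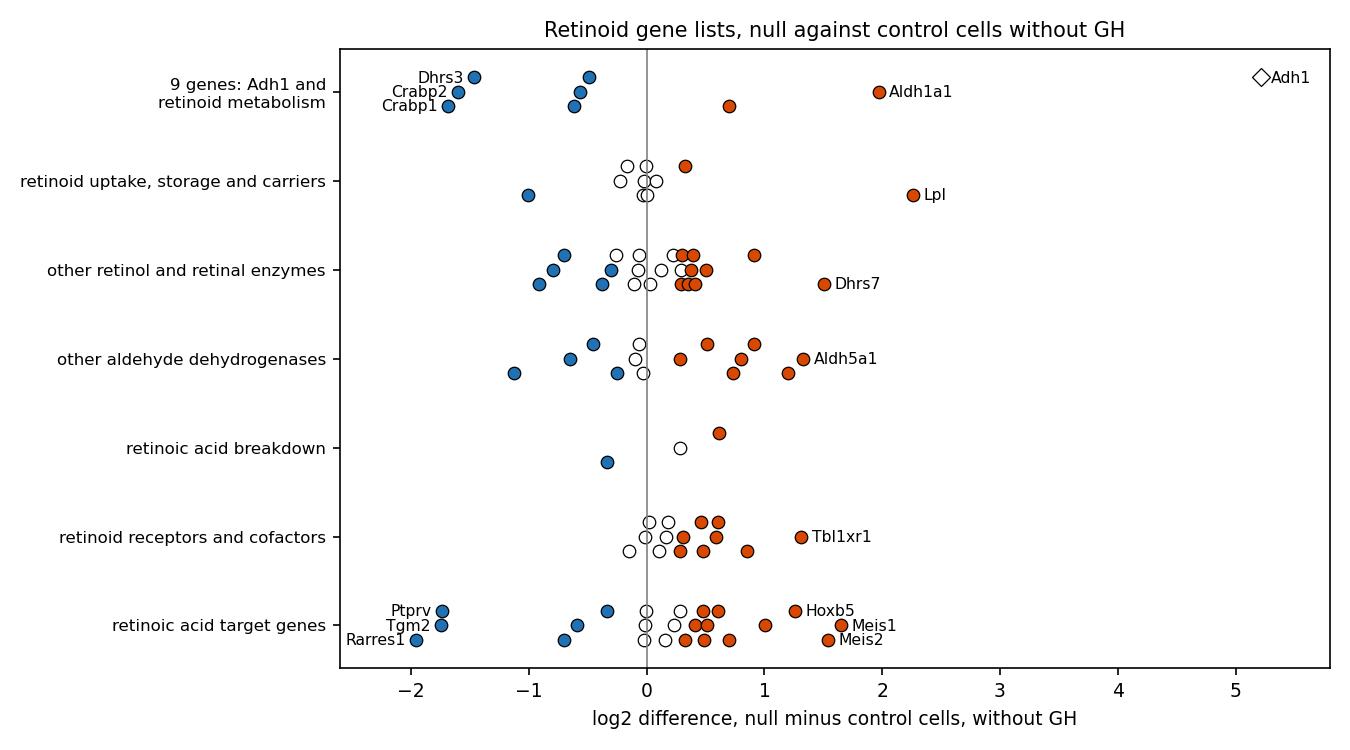
Log2 difference, null minus control cells without GH (horizontal axis), for each measured gene of the 9 members and 6 retinoid lists (rows). Orange points passed and were higher, blue points passed and were lower, white points did not pass, and the diamond is Adh1, which was not tested. Receptors and cofactors that passed are all on the right, while retinoic acid targets run from Rarres1 at -1.96 to Meis1 at 1.65.

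In control cells GH called 0 of these 80 genes by limma, with 7 at an unadjusted p below 0.05. In null cells it called 3 higher and 8 lower (13.8%, against 11.7% of all genes), and the interaction called 2 higher and 3 lower (6.25%, against 5.16% of all genes), both near the background. The interaction genes were the homeobox gene Meis1 (-1.09 ± 0.15, limma adjusted p = 0.00133), the transcription factor genes Foxc1 (0.70 ± 0.14, limma adjusted p = 0.0117) and Hic1 (0.60 ± 0.13, limma adjusted p = 0.017), the receptor gene Rarg (-0.61 ± 0.13, limma adjusted p = 0.0186) and Zfp703 (-0.56 ± 0.13, limma adjusted p = 0.0278), the last outside the naming rule. With the mean of its probe sets Meis1 turned to 0.14 (limma adjusted p = 0.603), so its direction rests on the probe set used. The interaction calls of Rarg were lost without either control-with-GH array, null-without-GH replicate 3 or null-with-GH replicate 2 (limma adjusted p from 0.0539 to 0.0937). Those of Foxc1 and Hic1 were lost without control-with-GH replicate 3, null-without-GH replicate 2 or null-with-GH replicate 3 (limma adjusted p from 0.0503 to 0.082). That of Zfp703 was lost without control-without-GH replicate 3, either control-with-GH array, null-without-GH replicate 3 or either null-with-GH array (limma adjusted p from 0.0602 to 0.125), and with the mean of its probe sets (-0.31, limma adjusted p = 0.126). Leaving out 1 array at a time, the interaction called 3 of the 80 without control-with-GH replicate 2, either null-without-GH array or null-with-GH replicate 2, 2 without null-with-GH replicate 3 and 1 without control-with-GH replicate 3. GH in null cells called 5 and 3 without null-without-GH replicate 2 and 3, and 4 and 3 without null-with-GH replicate 2 and 3.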

How the data were processed

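RNA of 8 samples was hybridised to 1 Affymetrix mouse array each. The deposited values are log2 levels, made by the authors with Partek 6.10.0511 and RMA, per the submitters' processing notes, with settings not given in the sources used here. RMA corrects background, equalises the arrays and summarises each probe set. It gives no detection call, so the first quartile of all gene values served as the limit of dim levels.

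Titles gave each array's group and replicate number, also for 1 untreated null array whose source label says 3 where its title says 2. Of 45101 probe sets, 64 controls were left out, and of the rest 34945 had 1 gene, 932 several and 9160 none. The probe set with the highest mean stood for a gene. Symbols were updated through Entrez identifiers for 34741 probe sets, with the RefSeq table of GRCm38.p6. All 8 arrays were fitted with limma 3.58.1 (R 4.3.3), 1 mean per group, with Benjamini-Hochberg adjustment over 18193 genes within each of 5 comparisons and a threshold of 0.05. The fit was tested on simulated data. Errors of differences are limma's SE.

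The members and lists were chosen with earlier results of these data known. Of each list, the text names genes from among the up to 4 with the smallest p that passed and were not dim in either group. Outside this rule are Cyp26a1, Zfp703 for the interaction, and genes named only as dim or as standing in more than 1 list. The number of arrays limits the precision. Alternatives were other probe set rules, normalizations, dim limits, variance priors, a replicate block, a 1.5-fold test and leaving out each array. Same-numbered arrays of different groups had deviations that correlated between -0.19 and 0.06, so the numbers were not used as pairs. Summed marker signals are on the linear scale. Adipocyte, endothelial, epithelial, mesothelial and liver markers were counted in the same way as the lists.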

Additional observations from a re-analysis of the deposited data

How the results depend on the processing

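The genotype calls of Aldh1a1, Crabp1, Crabp2, Dhrs3 and Rarb held under all alternatives run except that of Rarb without GH, which was lost against a 1.5-fold difference. That test left 4 of 8 members without GH and 5 of 8 with GH, and 0 for GH in control cells. The count for GH in control cells was 0 also with probe sets alone, the probe set mean and only the compared groups, and 0 to 1 when an array was left out. For GH in null cells the count was likewise 0 to 1 when an array was left out, and the interaction count was 1 under the trended prior. With the probe set mean, differences that had not passed changed sign for Aldh1a3 (0.0541 for GH in control cells, -0.0356 for the interaction) and Rdh10 (0.0119 for GH in null cells). With quantile normalization so did the Aldh1a2 interaction (0.0115). Leaving out arrays, uncalled GH differences that changed sign ran, in control cells, from -0.235 to 0.127 for Aldh1a2, -0.124 to 0.134 for Crabp1 and -0.133 to 0.0617 for Dhrs3. In null cells they ran from -0.0688 to 0.0445 for Aldh1a1, -0.0958 to 0.0071 for Adh1, -0.0557 to 0.0527 for Rdh10, -0.246 to 0.114 for Aldh1a2 and -0.0148 to 0.162 for Aldh1a3, and the Aldh1a2 interaction from -0.194 to 0.169. With the replicate number as a block, 8, 8, 1, 0 and 0 members were called, as without it.

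The counts of the lists were put to these alternatives after the data were seen. The 1.5-fold test left, without GH, 2 retinol enzymes, 3 aldehyde dehydrogenases, 0 breakdown genes, 2 receptors and cofactors and 6 targets. With GH it left 1 uptake gene, 3, 3, 0 and 6 of the lists other than breakdown, and 0 of the 80 genes for GH in null cells and the interaction. The probe set mean called 5 uptake genes without GH, 11 retinol enzymes and 1 breakdown gene with GH, and 2 of the 80 for GH in control cells. Breakdown with GH was 1 under quantile normalization or centring, 2 with dim genes left out or only the compared groups, and 0 to 1 without an array (1 to 3 without GH). For GH in control cells the 80 gave 2 under the trended prior and 0 to 1 without an array. For GH in null cells they gave 17 under that prior, 6 with the replicate block and 3 to 14 without an array, and the interaction 1 to 5 without an array. The cause of these shifts was not tested. With 2 arrays per group, small differences are beyond what the design resolves.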
